A study of Homo sapiens with 12 samples.

Results

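The 37 genes described here are ATF4, the kinases that act upstream of it, and its targets in amino acid synthesis, amino acid transport and stress. They were taken by gene symbol from a count table of 60668 genes, and all 37 passed the filter on low counts in both cell lines. RNA-seq libraries were made from PANC-1, a pancreatic adenocarcinoma cell line, and from H1299, a lung cancer line that the labels call lung adenocarcinoma cells. PANC-1 cells carried an shRNA against FOSL1 (shFOSL1), a subunit of the AP-1 transcription factor, or a scrambled shRNA (scramble). H1299 cells carried an shRNA against HDAC2 (shHDAC2), a histone deacetylase, or a scramble. Each of the 4 groups had 3 libraries labelled as biological replicates. The study describes puromycin selection of virus-exposed PANC-1 and H1299 cells for its FOSL1 shRNA. Its methods do not mention an HDAC2 shRNA, nor say whether scramble cells were selected in the same way. In these libraries each target was addressed with 1 shRNA construct, which the labels number 1 for HDAC2 and 2 for FOSL1. The study lists 1 FOSL1 shRNA sequence without such a number, so which construct was sequenced is not clear. The sources used here do not say whether replicates were transduced separately, and p-values then measure the spread between these libraries. In bulk RNA, fewer cells of a type and less RNA per cell cannot be told apart.

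ATF4 is a transcription factor whose own mRNA is translated better when the initiation factor eIF2α is phosphorylated, a state in which most other mRNAs are translated less. Kinases that sense amino acid shortage, misfolded protein, haem shortage or double-stranded RNA phosphorylate eIF2α, and PPP1R15A brings the phosphatase that reverses it. ATF4 pairs with C/EBP proteins on C/EBP-ATF response elements and switches on genes that make or import amino acids, together with regulators such as TRIB3 and DDIT3. The counts report mRNA, not ATF4 protein or eIF2α phosphorylation.

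The question was how each of these genes responded to each knockdown in its own line, and whether the responses differed. Levels are given as CPM, the counts of a gene scaled to a fixed library total, after TMM scaling within a line, which evens out library size and composition. A gene was called when edgeR's quasi-likelihood test gave a Benjamini-Hochberg adjusted p under 0.05 and the log2 fold change was over 0.5 in size. Total counts were 16065723 to 19173421 per library. FOSL1 was at 169, 159 and 158 CPM in the shFOSL1 libraries and at 212, 209.5 and 234 CPM in scramble PANC-1, a log2 fold change of -0.43 (SE 0.0617, adjusted p = 2.9e-06, edgeR), so this knockdown was small at the mRNA level. HDAC2 was at 80.9, 71.5 and 81.5 CPM in the shHDAC2 libraries and at 177, 187 and 196 CPM in scramble H1299, a log2 fold change of -1.26 (SE 0.0654, adjusted p = 5.4e-15, edgeR). FOSL1 itself rose in shHDAC2 H1299, by 0.40 on the log2 scale (adjusted p = 4.4e-06, edgeR). Epithelial markers were at 1 CPM or more for 6 of 6 genes in PANC-1 and for 3 of 6 in H1299, where KRT19, EPCAM and CDH1 were under 1 CPM. Summed blood and endothelial markers were at 0.322 to 0.857 CPM in PANC-1 and 2.13 to 3.74 CPM in H1299.

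To show the sequence behind the name of the pathway, promoters from 250 bases before to 50 bases after a start of each gene (RefSeq, GRCh38.p14) were searched on both strands. A gene can have other starts, which were not searched. The start used can lie inside the annotated span of the gene, as it does for CHAC1 and SLC3A2. The table held 29 of the 37 genes; missing were ALDH1L2, EIF2AK1, EIF4EBP1, NUPR1, PSPH, PYCR1, SHMT2 and SLC7A11. The C/EBP-ATF response element, searched as TGATGNAA, was in 4 of 29 promoters (13.8%) and in 3.67% of all 27305 promoters. The 4 windows follow 5′ to 3′ on the strand of the gene, with the element in capitals. In CHAC1 and SLC3A2 the element is on the opposite strand, and the capitals are its reverse complement.
CHAC1: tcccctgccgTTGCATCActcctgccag
ASNS: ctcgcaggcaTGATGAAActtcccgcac
SLC7A1: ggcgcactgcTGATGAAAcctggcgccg
SLC3A2: aatgtgcaggactccTTACATCAgctcc
The windows lie at chr15:40953252-40953279 (CHAC1, plus strand), chr7:97872459-97872486 (ASNS, minus strand), chr13:29595664-29595691 (SLC7A1, minus strand) and chr11:62881721-62881748 (SLC3A2, plus strand). The element starts 209 bases before the start in CHAC1 and 68 bases before it in ASNS, and at base 7 after it in SLC7A1 and base 37 after it in SLC3A2. These 4 genes did not move alike in the shFOSL1 libraries, where CHAC1, SLC7A1 and SLC3A2 rose and ASNS fell.

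The AP-1 element, which FOSL1-containing dimers bind, was searched as TGANTCA. That pattern allows any base in the middle, so it also counts looser matches. It was in 4 of 29 promoters (13.8%) and in 7.76% of all promoters. The match is TGACTCA in ATF5, DDIT3 and SLC3A2 and TGATTCA in EIF2AK4. The windows are shown because FOSL1 was the gene knocked down in PANC-1.
ATF5: gagagtgctgTGACTCAtgctggactct
DDIT3: gcgcgcgcaTGACTCAcccacctcctcc
SLC3A2: cgagggtgggTGACTCAgcgtcctcctt
EIF2AK4: ttcctatctgTGATTCAtttcttaagtt
They lie at chr19:49928708-49928735 (ATF5, plus strand), chr12:57520737-57520764 (DDIT3, minus strand), chr11:62881652-62881679 (SLC3A2, plus strand) and chr15:39933893-39933920 (EIF2AK4, plus strand). In the shFOSL1 libraries ATF5 and SLC3A2 rose, EIF2AK4 fell, and DDIT3 had a log2 fold change of 0.09 that did not pass the test (adjusted p = 0.37, edgeR). The cAMP response element TGACGTCA was in the promoter of PPP1R15A alone among the 29 (3.45%, against 1.98% of all promoters). A match of letters in such a window is a description and was not tested as a binding site.

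In PANC-1, the ATF4 transcript rose with shFOSL1 together with CHAC1, SESN2, NUPR1, SLC7A11 and TRIB3, while ASNS and CTH fell. In all, 13 of the 37 genes were called (background 26.5%), 11 of them higher, where 10.6% of all 16345 genes tested were, and 2 lower, where 15.8% were. At the adjusted p alone, 31 passed (background 50.9%), of which 21 rose (background 23.8%) and 10 fell (background 27.1%). The median log2 fold change of the 37 genes was 0.28, and that of all genes tested was -0.02. For 31 of the 37 the knockdown and scramble libraries did not overlap (background 57.2%).

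In H1299, GDF15, PCK2, PSAT1, TRIB3 and STC2 were among the genes that fell with shHDAC2, while EIF2AK3 rose. Here 11 of the 37 genes were called (background 7.06%), 10 of them lower, where 5.61% of all 16465 genes tested were, and 1 higher, where 1.45% were. At the adjusted p alone, 23 passed (background 22.4%), of which 20 fell (background 12.1%) and 3 rose (background 10.3%). The median log2 fold change of the 37 genes was -0.25, and that of all genes tested was 0.00. Knockdown and scramble libraries did not overlap for 17 of the 37 (background 37.2%).

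A pair of libraries bears on many of the H1299 values. shHDAC2 replicate 1 was the lowest library of its group for 30 of the 37 genes (81.1%), against 33.6% of all genes tested, while its HDAC2 level of 80.9 CPM lay between those of the other two. Without it, 8 genes were called lower, SLC7A11 and SLC1A4 being the pair no longer called, and 13 in place of 20 fell at the adjusted p alone. PCK2 was then at -0.90, NUPR1 at -1.12, ALDH1L2 at -0.92, STC2 at -0.60 and CEBPG at -0.52, all still called, while EIF2AK4, PSPH, SHMT2, MTHFD2, CBS, SLC7A1, SLC7A5 and SESN2 no longer passed the test. Scramble replicate 3 was the highest of its group for 24 of the 37 genes (64.9%), against 30.5% of all genes tested, and without it 8 genes were called lower and 13 fell at the adjusted p alone as well. Why these libraries stood low and high was not tested. In PANC-1, shFOSL1 replicate 3 was the lowest of its group for 24 of the 37 genes (64.9%), against 32.6% of all genes tested. Scramble replicate 1 also stood apart. Over all genes, chi-square divided by its degrees of freedom came to 7.08 and 9.54 between it and the other two in PANC-1 and to 6.91 and 6.21 in H1299, against 3.05 and 3.61 between the others. Without scramble replicate 1 the calls were 12 higher and 2 lower in PANC-1, and 1 higher and 11 lower in H1299.

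**Figure D1:**
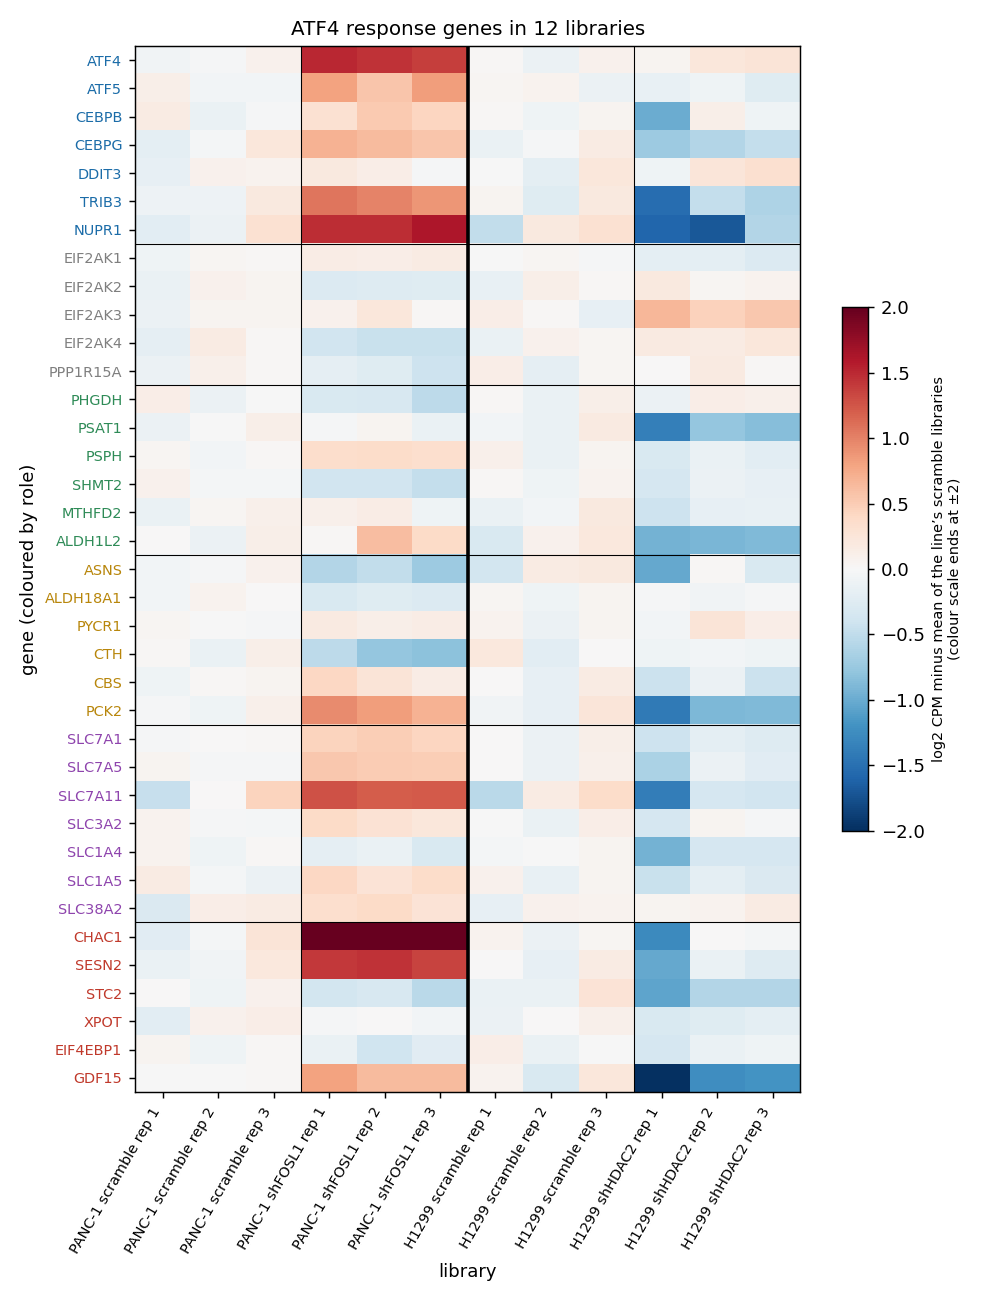
The heat map plots, for 37 genes (vertical, grouped and coloured by role) in 12 libraries (horizontal), log2 CPM minus the mean of the scramble libraries of the same line, with colours ending at 2 in each direction. CHAC1, ATF4, SESN2 and NUPR1 are the deepest red in the 3 shFOSL1 libraries, and GDF15 in shHDAC2 replicate 1 is the deepest blue.

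Among the 7 transcription factors and modulators, 5 were called higher in shFOSL1 PANC-1 (background 10.6%) and 3 lower in shHDAC2 H1299 (background 5.61%). ATF4 (ENSG00000128272.14, chr22:39519695-39522683) was at 685, 655 and 628 CPM in the shFOSL1 libraries and at 229.6, 238 and 256 CPM in scramble PANC-1. Every shFOSL1 library was above every scramble library, and ATF4 was 2.72-fold higher (log2 1.44, SE 0.0584, adjusted p = 5e-16, edgeR). In H1299 it was at 426, 481 and 494 CPM with shHDAC2 and at 417, 382 and 437 CPM with scramble. These groups overlapped, and the log2 fold change of 0.18 (SE 0.0616, adjusted p = 0.032, edgeR) passed the test but not the fold limit. ATF4 was the sole one of the 37 that rose in both knockdowns (3.05% of 14585 genes tested in both lines did). The H1299 rise did not pass with upper quartile scaling (adjusted p = 0.055, edgeR), nor without shHDAC2 replicate 2 or 3 or scramble replicate 2 (adjusted p = 0.15, 0.22 and 0.13, edgeR).

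TRIB3, a pseudokinase that ATF4 induces and that holds back ATF4 in turn, moved in opposite directions. It was at 168, 159 and 149 CPM in shFOSL1 against 74.7, 74.6 and 92.2 CPM in scramble PANC-1 (log2 0.98, SE 0.0769, adjusted p = 1.7e-10, edgeR). With shHDAC2 it was at 46.8, 97.4 and 88.4 CPM and at 139, 114 and 154 CPM with scramble H1299 (log2 -0.81, SE 0.133, adjusted p = 3.3e-05, edgeR). Neither pair of groups overlapped, but shHDAC2 replicate 1 lay far below its group, and without it the H1299 value was -0.54. DESeq2 gave an adjusted p of 0.086 for TRIB3 in H1299.

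CEBPG, a C/EBP protein that dimerizes with ATF4, showed the same opposition with less spread. It was at 134, 129 and 122 CPM in shFOSL1 and at 72.5, 80.6 and 96.9 CPM in scramble PANC-1 (log2 0.62, SE 0.0808, adjusted p = 6.9e-07, edgeR). In H1299 the values were 67.9, 75.2 and 80.8 CPM with shHDAC2 and 102, 109 and 126 CPM with scramble (log2 -0.59, SE 0.0745, adjusted p = 5e-07, edgeR). The groups were apart in both lines.

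NUPR1, a small stress-induced nuclear protein, was scarce in H1299. It was at 17, 17 and 18.7 CPM in shFOSL1 and at 5.24, 5.62 and 7.56 CPM in scramble PANC-1, 2.86-fold higher with no overlap (log2 1.52, SE 0.134, adjusted p = 1.4e-09, edgeR). In H1299 it had 14, 13 and 34 counts with shHDAC2 and 35, 55 and 67 counts with scramble (log2 -1.29, SE 0.306, adjusted p = 0.0023, edgeR). The highest shHDAC2 library was just under the lowest scramble library on the CPM scale, at 1.86 against 1.98 CPM.

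Of the other 3 regulators, ATF5 was called in PANC-1 and CEBPB and DDIT3 in neither line. ATF5, a relative of ATF4 that is also controlled at translation, rose in PANC-1 by 0.74 on the log2 scale and had a value of -0.16 in H1299 that did not pass the test (adjusted p = 0.2, edgeR). CEBPB, another C/EBP partner, rose by 0.42 in PANC-1, under the fold limit, and had -0.25 in H1299 (adjusted p = 0.19, edgeR). DDIT3, which encodes the pro-apoptotic factor CHOP, passed the test in neither line, with 0.09 in PANC-1 and 0.16 in H1299 (adjusted p = 0.26, edgeR). In the annotation 39.6% of DDIT3 exon bases overlap other genes, MARS1 and MBD6 on the opposite strand and an unnamed gene on the same strand. Apart from ASNS, given below, the share was next highest for PYCR1 (29.7%), SLC1A5 (23.8%) and ATF5 (22.1%). The strand setting of the counting is not given in the sources used here, and the part of such overlap in these levels was not tested.

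**Figure D2:**
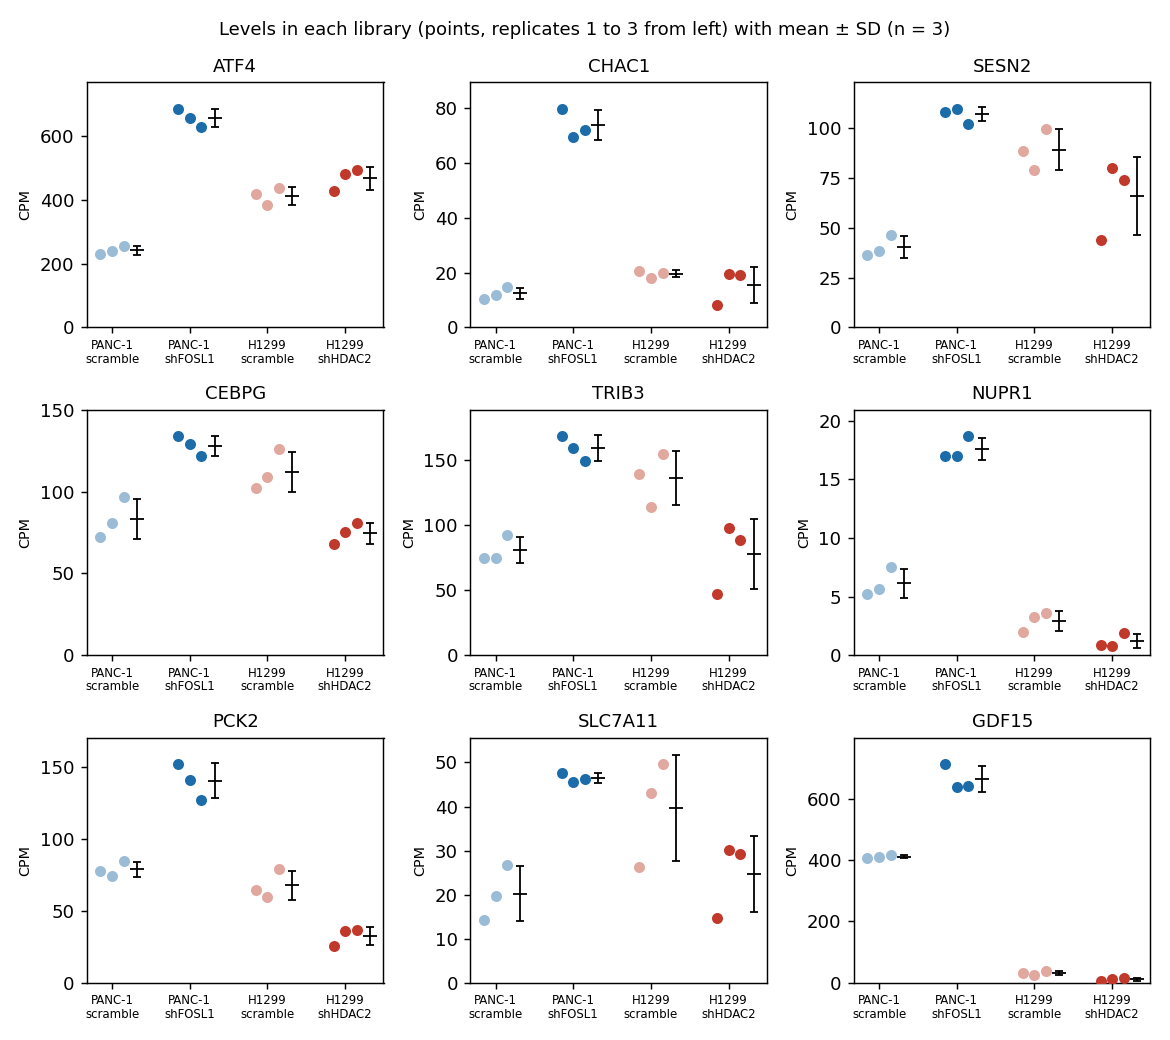
Each panel plots CPM (vertical, from 0) of 1 gene in the 4 groups, with a point per library and the mean ± SD (n = 3) beside the points. In CEBPG, TRIB3, NUPR1, PCK2 and GDF15 the shFOSL1 libraries sit above scramble PANC-1 and the shHDAC2 libraries below scramble H1299, while ATF4 in H1299 overlaps.

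Among the 4 eIF2α kinases and PPP1R15A, none was called in PANC-1 (background 26.5%) and 1 was called in H1299 (background 7.06%). At the adjusted p alone, 1 rose and 3 fell in PANC-1 (background 23.8% and 27.1%). In H1299 2 rose and 1 fell by that rule (background 10.3% and 12.1%). EIF2AK3 encodes PERK, the kinase of the endoplasmic reticulum. It was at 16.9, 14.7 and 15.5 CPM with shHDAC2 and at 11.7, 10.8 and 9.42 CPM with scramble H1299, with no overlap (log2 0.56, SE 0.114, adjusted p = 0.00046, edgeR). Without scramble replicate 3 it was at 0.48, under the fold limit. In PANC-1 it was at 10.2, 11.2 and 9.83 CPM with shFOSL1 and at 8.87, 10.0 and 10.0 CPM with scramble, which overlapped (log2 0.11, adjusted p = 0.47, edgeR).

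The remaining 4 changed by under 0.5 on the log2 scale where they changed. EIF2AK4, the amino acid sensor GCN2, fell in PANC-1 (log2 -0.43, adjusted p = 0.00014, edgeR) and rose in H1299 (log2 0.18, adjusted p = 0.033, edgeR), the sole one of the 37 that did so (background 3.38%). The rise in H1299 did not pass with upper quartile scaling, in the fit of all 12 libraries, or in 5 of the 6 fits that left out 1 H1299 library, such as that without shHDAC2 replicate 1 (adjusted p = 0.094, edgeR). EIF2AK1, the haem-regulated kinase HRI, rose in PANC-1 by 0.15 (adjusted p = 0.027, edgeR) and fell in H1299 by 0.22 (adjusted p = 0.0058, edgeR). Its rise did not pass with upper quartile scaling or without shFOSL1 replicate 1, 2 or 3, nor its fall without shHDAC2 replicate 3. EIF2AK2, the double-stranded RNA sensor PKR, fell by 0.27 on the log2 scale in PANC-1 and had 0.10 in H1299 (adjusted p = 0.35, edgeR). PPP1R15A, known as GADD34, fell by 0.28 in PANC-1 and had 0.06 in H1299 (adjusted p = 0.61, edgeR).

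The 6 genes of serine synthesis and one-carbon metabolism were lower in H1299 where they moved, and mixed in PANC-1. In PANC-1 none was called (background 26.5%), while 2 rose (background 23.8%) and 2 fell (background 27.1%) at the adjusted p alone. In H1299 2 were called lower (background 5.61%) and 5 fell at the adjusted p alone (background 12.1%). The count of 5 was 2 without shHDAC2 replicate 1, 2 without scramble replicate 3 and 3 without shHDAC2 replicate 3. PSAT1, the aminotransferase of serine synthesis, was at 62.3, 94.2 and 89.3 CPM with shHDAC2 and at 156, 147 and 182 CPM with scramble H1299. It was 1.97-fold lower, with every shHDAC2 library below every scramble library (log2 -0.98, SE 0.0933, adjusted p = 2e-09, edgeR), and -0.81 without shHDAC2 replicate 1. In PANC-1 PSAT1 was at 195, 205 and 179.9 CPM with shFOSL1 and at 184, 196 and 214 CPM with scramble, and did not pass the test (log2 -0.04, adjusted p = 0.68, edgeR).

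ALDH1L2, a mitochondrial folate enzyme that releases NADPH, was even across the shHDAC2 libraries at 9.57, 9.72 and 9.94 CPM and stood at 15, 19.7 and 21.4 CPM in scramble H1299. The groups were apart (log2 -0.94, SE 0.12, adjusted p = 6.4e-07, edgeR). In PANC-1 it was at 10.5, 15.9 and 13.5 CPM with shFOSL1 and at 10.4, 9.48 and 11.1 CPM with scramble, which overlapped (log2 0.37, SE 0.135, adjusted p = 0.025, edgeR). That value was 0.52 without shFOSL1 replicate 1 and 0.23 without replicate 2 (adjusted p = 0.21, edgeR), and DESeq2 gave an adjusted p of 0.053. PHGDH, the first enzyme of serine synthesis, and SHMT2, which turns serine into glycine in mitochondria, fell in PANC-1 by 0.38 and by 0.41. PSPH, the last enzyme of serine synthesis, rose in PANC-1 by 0.35 and fell in H1299 by 0.22. SHMT2 and MTHFD2, the next mitochondrial folate enzyme, fell in H1299 by 0.20 and by 0.25, while MTHFD2 in PANC-1 (log2 0.05) and PHGDH in H1299 (log2 0.04) did not pass the test.

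Among the 6 genes of asparagine, proline, sulfur amino acid and phosphoenolpyruvate synthesis, PCK2 was called higher and ASNS and CTH lower in PANC-1, and PCK2 lower in H1299. PCK2, the mitochondrial phosphoenolpyruvate carboxykinase, was at 152, 141 and 127 CPM with shFOSL1 and at 77.6, 74.4 and 84.5 CPM with scramble (log2 0.83, SE 0.0722, adjusted p = 1.2e-09, edgeR). H1299 libraries held it at 25.2, 35.8 and 36.3 CPM with shHDAC2 and at 64, 59.6 and 79.1 CPM with scramble (log2 -1.06, SE 0.102, adjusted p = 2.4e-09, edgeR). The groups were apart in both lines, in opposite order.

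ASNS, asparagine synthetase, went against ATF4 in PANC-1, although its promoter holds the element shown above. It was at 20.6, 22.1 and 18.7 CPM with shFOSL1 and at 29.7, 30.7 and 32.9 CPM with scramble, with no overlap (log2 -0.60, SE 0.0948, adjusted p = 1.1e-05, edgeR). In H1299 it was at 2.75, 5.81 and 4.64 CPM with shHDAC2 and at 4.42, 6.42 and 6.62 CPM with scramble, which overlapped (log2 -0.40, SE 0.201, adjusted p = 0.16, edgeR). Of the ASNS exon bases, 49.3% overlap an unnamed gene on the same strand, so its level is uncertain.

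CTH, the enzyme that makes cysteine from cystathionine, was at 8.55, 7.21 and 6.98 CPM with shFOSL1 and at 12.5, 11.2 and 13.5 CPM with scramble, with no overlap (log2 -0.71, SE 0.13, adjusted p = 7.1e-05, edgeR). In H1299 it was at 9.88, 10.1 and 9.89 CPM with shHDAC2 and at 12.1, 9.04 and 10.5 CPM with scramble, a difference within the spread of the scramble libraries (log2 -0.09, adjusted p = 0.67, edgeR). CBS, which makes cystathionine, moved the other way in PANC-1, rising by 0.28, and fell by 0.33 in H1299, though its near-identical copy CBSL could have taken part of its reads. ALDH18A1, the first enzyme of proline synthesis, fell in PANC-1 by 0.27, and PYCR1, the last, rose by 0.15. In H1299 the values were -0.04 and 0.11, which did not pass the test.

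The 7 amino acid transporters rose in PANC-1 and fell in H1299 where they passed the test, with 6 rising (background 23.8%) and none falling in PANC-1 and 5 falling (background 12.1%) and none rising in H1299 at the adjusted p alone. In H1299 3 fell without shHDAC2 replicate 1, without scramble replicate 3, and by DESeq2. SLC7A11, the cystine and glutamate exchanger, was at 47.7, 45.5 and 46.2 CPM with shFOSL1 and at 14.2, 19.7 and 26.8 CPM with scramble (log2 1.20, SE 0.131, adjusted p = 4.9e-08, edgeR). The shFOSL1 libraries were tight and apart from the scramble libraries. H1299 libraries had 14.7, 30.2 and 29.2 CPM with shHDAC2 and 26.3, 43 and 49.7 CPM with scramble (log2 -0.68, SE 0.165, adjusted p = 0.0028, edgeR). Those groups overlapped, and the value was -0.42 without shHDAC2 replicate 1 and -0.48 without scramble replicate 3, under the fold limit. DESeq2 gave an adjusted p of 0.28 for SLC7A11 in H1299.

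SLC7A5, the large neutral amino acid transporter, was at 894, 867 and 861 CPM with shFOSL1 and at 634, 606 and 600.3 CPM with scramble, apart and close to the fold limit (log2 0.51, SE 0.0519, adjusted p = 1.5e-08, edgeR). It was at 0.49 with upper quartile scaling. In H1299 SLC7A5 was at 308, 444 and 411 CPM with shHDAC2 and at 479.6, 444 and 513 CPM with scramble, where 1 library of each group was at the same level (log2 -0.30, SE 0.0801, adjusted p = 0.0058, edgeR). Without shHDAC2 replicate 1 it was at -0.16 and did not pass the test (adjusted p = 0.15, edgeR). SLC3A2, the heavy chain that carries both SLC7A5 and SLC7A11 to the membrane, rose in PANC-1 by 0.30 and had -0.10 in H1299 (adjusted p = 0.37, edgeR).

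SLC1A4, a carrier of alanine, serine and cysteine, was at 24.4, 37.3 and 37.5 CPM with shHDAC2 and at 45.8, 46.9 and 48.6 CPM with scramble H1299, with no overlap (log2 -0.51, SE 0.101, adjusted p = 0.00037, edgeR). It was at -0.33 without shHDAC2 replicate 1 and at -0.48 without scramble replicate 3. In PANC-1 it was at 16.9, 17.4 and 15.5 CPM with shFOSL1 and at 20.1, 17.9 and 19.4 CPM with scramble, and did not pass the test (log2 -0.21, adjusted p = 0.097, edgeR). SLC7A1, the cationic amino acid transporter, and SLC1A5, a glutamine transporter, rose in PANC-1 by 0.45 and 0.34 and fell in H1299 by 0.29 and by 0.31. SLC38A2, another glutamine transporter, rose in PANC-1 by 0.32 and had 0.10 in H1299, which did not pass the test.

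Among the 6 other stress targets, CHAC1, SESN2 and GDF15 were called higher in PANC-1, and GDF15 and STC2 lower in H1299. CHAC1 (ENSG00000128965.13, chr15:40952962-40956512), which breaks down glutathione, was at 79.7, 69.4 and 72 CPM with shFOSL1 and at 10.5, 11.9 and 14.7 CPM with scramble. It was 5.94-fold higher with no overlap (log2 2.57, SE 0.101, adjusted p = 3e-16, edgeR), and the largest change among the 37 genes in PANC-1. In H1299 it was at 8, 19.6 and 19 CPM with shHDAC2 and at 20.5, 18 and 20 CPM with scramble, with overlap (log2 -0.32, SE 0.163, adjusted p = 0.16, edgeR). The H1299 value was -0.01 without shHDAC2 replicate 1 and -0.51 without replicate 2, where it was called (adjusted p = 0.042, edgeR).

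SESN2, a leucine sensor that restrains mTORC1, was at 108, 109.7 and 102 CPM with shFOSL1 and at 36.4, 38.1 and 46.5 CPM with scramble, 2.64-fold higher with no overlap (log2 1.40, SE 0.0808, adjusted p = 5.8e-13, edgeR). In H1299 SESN2 was at 43.7, 80.1 and 74.1 CPM with shHDAC2 and at 88.6, 78.9 and 99.5 CPM with scramble, with overlap (log2 -0.43, SE 0.116, adjusted p = 0.0071, edgeR). Without shHDAC2 replicate 1 the value was -0.20 and no longer passed the test (adjusted p = 0.11, edgeR), nor did it without scramble replicate 3 (adjusted p = 0.087, edgeR). It was called lower without shHDAC2 replicate 2 or 3 or scramble replicate 2, at -0.59, -0.52 and -0.51, and DESeq2 gave an adjusted p of 0.33.

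GDF15 (ENSG00000130513.6, chr19:18374731-18389176), a secreted stress cytokine, had the largest change among the 37 genes in H1299. It was at 4.31, 13.1 and 13.6 CPM with shHDAC2 and at 32.6, 25.3 and 36.4 CPM with scramble, 3.01-fold lower with no overlap (log2 -1.59, SE 0.183, adjusted p = 9.7e-08, edgeR). Without shHDAC2 replicate 1 the value was -1.23 (adjusted p = 2e-09, edgeR). In PANC-1 it was at 714, 639 and 640.2 CPM with shFOSL1 and at 407, 409 and 416 CPM with scramble, with no overlap (log2 0.69, SE 0.0561, adjusted p = 3e-10, edgeR).

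STC2, a secreted glycoprotein, fell in both lines. It was at 30.6, 42.6 and 42.6 CPM with shHDAC2 and at 58, 58.3 and 77.9 CPM with scramble H1299 (log2 -0.75, SE 0.102, adjusted p = 2.1e-06, edgeR). In PANC-1 it was at 151, 156 and 134 CPM with shFOSL1 and at 196, 182 and 206 CPM with scramble (log2 -0.40, SE 0.0668, adjusted p = 2e-05, edgeR). The groups were apart in both lines. XPOT, which exports tRNA from the nucleus, had -0.03 in PANC-1 (adjusted p = 0.72, edgeR) and fell by 0.25 in H1299. EIF4EBP1, a repressor of cap-dependent translation, fell by 0.25 in PANC-1 and had -0.19 in H1299 (adjusted p = 0.053, edgeR).

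The responses to both knockdowns were set side by side. Of the 37 genes, 6 were called higher in shFOSL1 PANC-1 and lower in shHDAC2 H1299, namely CEBPG, TRIB3, NUPR1, PCK2, SLC7A11 and GDF15, where 0.644% of the 14585 genes tested in both lines were. The count was 4 by DESeq2, without TRIB3 and SLC7A11, was 5 without shHDAC2 replicate 1 or scramble replicate 3, in both cases without SLC7A11, and reached 8 without shHDAC2 replicate 2. None was called lower in PANC-1 and higher in H1299 (background 0.357%), higher in both (0.247%) or lower in both (1.70%). At the adjusted p alone, 14 of the 37 rose in PANC-1 and fell in H1299 (background 3.14%), and STC2 and SHMT2 fell in both (background 4.48%). The 14 came to 9 without shHDAC2 replicate 1, 9 without scramble replicate 3 and 7 by DESeq2, and SHMT2 no longer fell in H1299 without either of these libraries.

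**Figure D3:**
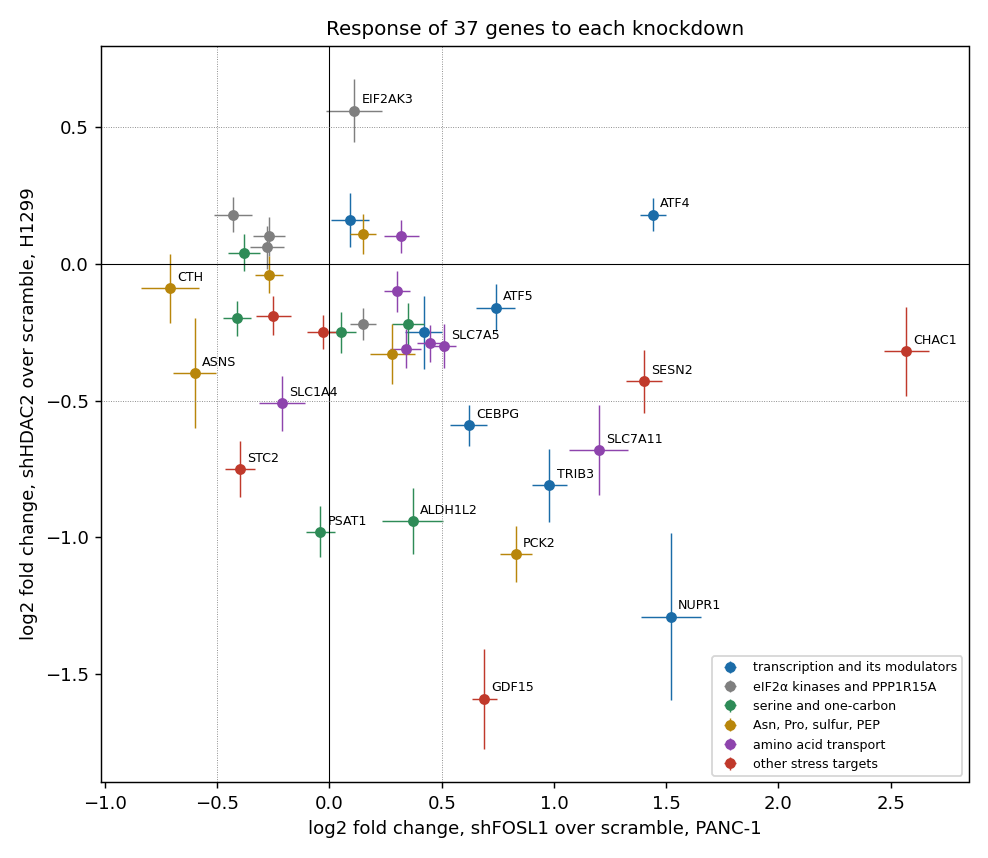
The plot sets the log2 fold change of each of the 37 genes in H1299 (vertical) against that in PANC-1 (horizontal), with standard errors as bars, colours for roles and dotted lines at 0.5 in each direction. CEBPG, TRIB3, NUPR1, PCK2, SLC7A11 and GDF15 lie beyond the dotted lines at the lower right, CHAC1 and ATF4 lie far to the right near the horizontal axis, and no gene lies beyond both lines at the upper left.

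The difference of the log2 fold changes, PANC-1 minus H1299, was tested as an interaction over all 12 libraries. It was called for 20 of the 37 genes, 18 of them higher in PANC-1 (background 11.9%) and 2 lower (background 10.3%). CHAC1 differed by 2.91 (SE 0.232, adjusted p = 2.5e-11, edgeR), NUPR1 by 2.82, GDF15 by 2.31 (SE 0.215, adjusted p = 6.9e-10, edgeR) and PCK2 by 1.91 (SE 0.143, adjusted p = 6.1e-12, edgeR). ATF4 itself differed by 1.28 (SE 0.0903, adjusted p = 1.5e-12, edgeR). CTH and EIF2AK4 were the 2 that went lower in PANC-1, each at -0.60. The median difference was 0.42 over the 37 genes and 0.03 over all 18505 genes tested. Cell line and target gene cannot be told apart in this test, since no line carried both knockdowns.

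Levels between genes were compared per kilobase of exon. The length was the union of all annotated exons of a gene, 20691 bases for EIF2AK3, 5508 for NUPR1 and 5492 for EIF2AK1. Where the expressed transcript is shorter than that union the value comes out too low, so ranks between genes are approximate. In PANC-1 GDF15 was the most abundant of the genes called in either line, at 318 CPM per kb with shFOSL1 and 197 with scramble, followed by ATF4 at 251 with shFOSL1. In H1299 the order was different, with ATF4 at 179 CPM per kb with shHDAC2 and 158 with scramble, and GDF15 at 4.96 and 15.1. By this measure the kinases spanned a wide range, from 46 CPM per kb for EIF2AK1 to 0.504 for EIF2AK3 in the shFOSL1 libraries. NUPR1 in the shHDAC2 libraries was the lowest value of all, at 0.213 CPM per kb. Lines were scaled separately, so no test was made between them.

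**Figure D4:**
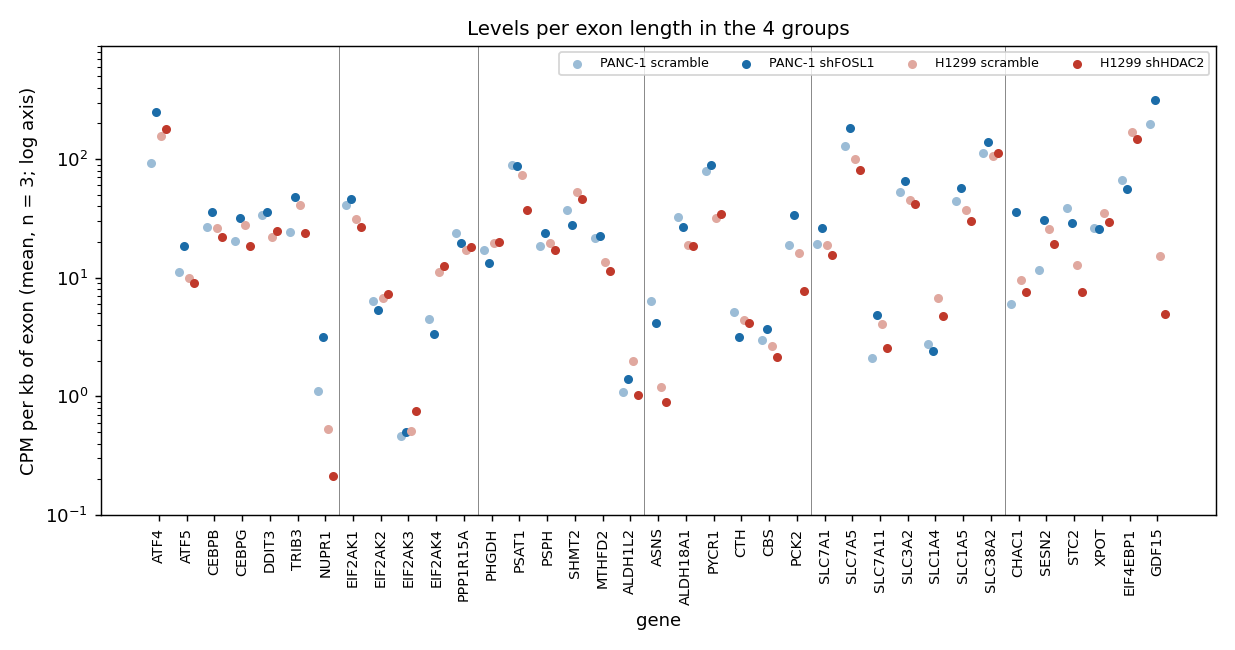
The plot gives the mean level of each gene in each of the 4 groups as CPM per kb of exon on a log axis (n = 3 libraries per point), with genes ordered by role. GDF15 shows the widest gap between lines, from 318 CPM per kb in shFOSL1 PANC-1 to 4.96 in shHDAC2 H1299, and NUPR1 and EIF2AK3 lie near the bottom.

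Genes around the pathway were examined as further lists. Among 22 other genes linked to ATF4, 20 were tested in PANC-1, where 5 were called higher (background 10.6%) and 6 lower (background 15.8%), and 18 in H1299, where none was called higher and 4 lower (background 5.61%). JDP2, a bZIP repressor, followed the opposition, with a log2 fold change of 1.34 in PANC-1 and -1.05 in H1299 (adjusted p = 2.6e-09 and 2.1e-07, edgeR). SLC38A1, a glutamine transporter, rose by 0.68 in PANC-1, while BCAT1, a branched-chain aminotransferase, and KDM7A, a histone demethylase, fell by 1.42 and by 1.02. SLC6A9, a glycine transporter, fell by 1.11 in H1299. A list of 12 tRNA synthetases, which charge tRNA with amino acids, was chosen for their link to ATF4 and is not the whole class. Their median was 0.30 in PANC-1, where 9 rose (background 23.8%) and none fell at the adjusted p alone. TARS was the sole one called there (background 26.5%), higher by 1.27 on the log2 scale (SE 0.064, adjusted p = 4e-14, edgeR). In H1299 the median was -0.07 and none was called (background 7.06%), while 4 fell (background 12.1%) and none rose at the adjusted p alone.

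The other arms of the unfolded protein response did not follow the ATF4 targets as a block. Of 16 genes of the ATF6 and XBP1 arms, 1 was called higher and 3 lower in PANC-1 (background 10.6% and 15.8%), with XBP1, a transcription factor, at 0.77 and the chaperone genes HSPA5 and DNAJB9 at -0.69 and -0.72. None was called in H1299 (background 7.06%), where 1 rose and 1 fell at the adjusted p alone by edgeR (background 10.3% and 12.1%). Among 12 subunits and partners of eIF2, eIF2B and GCN2 none was called in PANC-1 (background 26.5%) or H1299 (background 7.06%). At the adjusted p alone by edgeR, 3 rose and 3 fell in PANC-1 (background 23.8% and 27.1%) and 3 rose in H1299 (background 10.3%). The 8 tested genes of mitochondrial stress include the relay from mitochondria to HRI as well as chaperones and proteases. They held no call in PANC-1 (background 26.5%), where 2 rose and 1 fell at the adjusted p alone by edgeR (background 23.8% and 27.1%). In H1299 1 was called higher (background 1.45%), the chaperonin HSPE1 at 0.51.

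Mitochondrially encoded mRNAs moved with the PANC-1 groups. Of 13 such genes, 11 were called higher in shFOSL1 (background 10.6%), led by MT-ND2 at 1.82 and MT-ND1 at 1.79. The share of mitochondrially encoded genes in all counts was 12.9% ± 0.395 (SD, n = 3) against 7.16% ± 0.154 (SD, n = 3) in scramble. In H1299 the shares were 11.7% ± 0.659 and 12.5% ± 0.64 (SD, n = 3). With these and the 20 most abundant genes taken out of the table, the calls among the 37 were again 11 higher and 2 lower in PANC-1 and 1 higher and 10 lower in H1299. Summed fibroblast and smooth muscle markers were at 72.4 to 80.2 CPM in the shFOSL1 libraries and at 215 to 273 CPM in scramble PANC-1, nearly all of it COL1A1, with means of 74.5 and 241 CPM, while the other 5 genes were under 2 CPM and DCN was at 0 with shFOSL1. Summed epithelial markers were at 1474 to 1506 CPM against 1948 to 2489 CPM in PANC-1, where KRT8 had means of 769 and 1364 CPM and KRT19 went the other way with 355 and 306 CPM, and at 358 to 382 CPM with shHDAC2 against 574 to 632 CPM in H1299. The part of these shifts in the results was not tested.

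**Figure D5:**
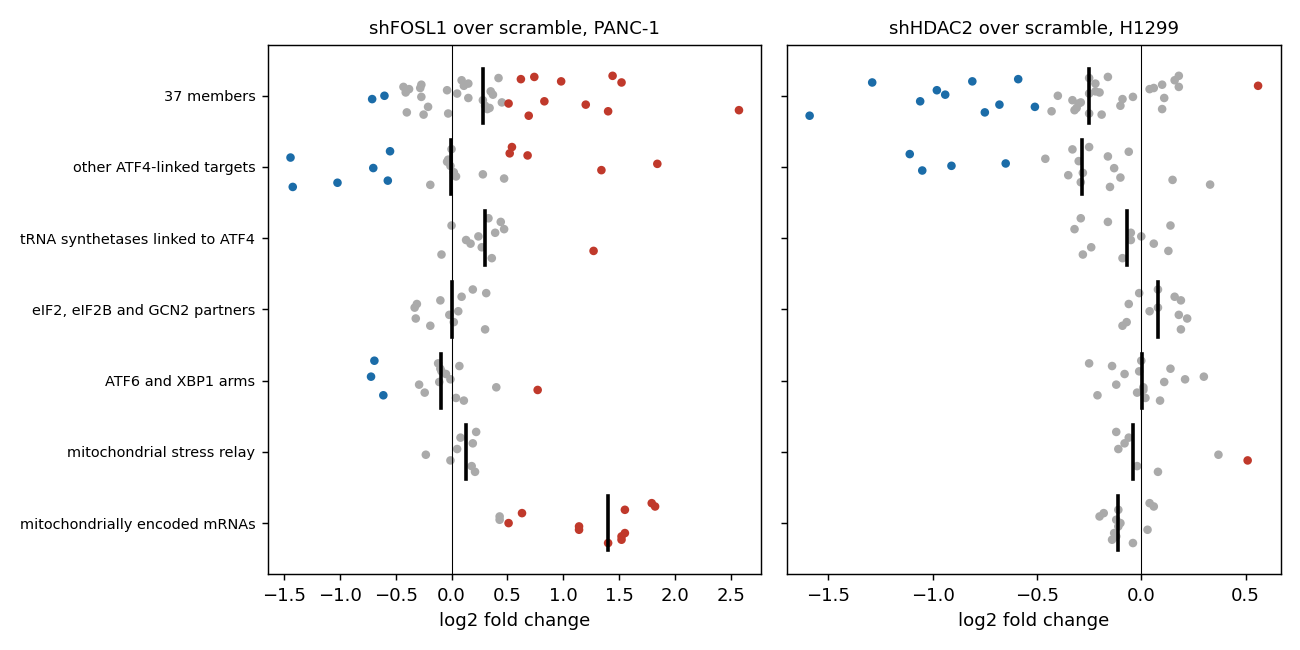
Points are log2 fold changes of single genes (horizontal) in the 37-gene list and 6 further lists (vertical) for PANC-1 (left) and H1299 (right), with black bars for medians, red for genes called higher and blue for genes called lower. The mitochondrially encoded mRNAs sit far to the right in PANC-1, with a median of 1.40, and at -0.11 in H1299, while the 37 genes have medians of 0.28 and -0.25.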

How the data were processed

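The deposited table holds whole-number counts per gene. The authors isolated RNA with TRIzol, made NEBNext Ultra libraries and sequenced paired ends. The submitters' processing notes name cutadapt, FastQC, STAR 2.7.2b (alignment), featureCounts 2.0.1 (counting) and the build GRCh38. Strand setting and annotation release are not given in the sources used here.

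Groups came from the labels. Counts were filtered with filterByExpr, scaled by TMM and tested with the edgeR 4.0.16 quasi-likelihood test (R 4.3.3) within each line, 3 libraries against 3, and over all 12 for the difference, with Benjamini-Hochberg adjustment over all genes. An exact permutation test of 3 against 3 cannot go under p = 0.1. GENCODE release 44 gave exon lengths and positions for 60295 of the 60668 identifiers. Alternatives were DESeq2 1.42.0, other scalings, filters and thresholds, a replicate block, and leaving out each library. The model was also run on counts simulated with the spread it estimates, which cannot show how well it fits these libraries. Depth was similar across libraries, and NUPR1 in H1299, at 13 to 67 counts, is the least precise value.

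Library values are given for ATF4, the targeted genes, in each role group up to 3 called genes with the largest change and a mean of at least 5 CPM in that line, and genes called in opposite directions. From each further list, up to 2 called increases and 2 decreases are named. Genes, lists and thresholds were chosen with earlier results of these data known. The main test did not pair libraries by replicate number.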

Additional observations from a re-analysis of the deposited data

Results flagged for a closer look

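For 20 of the 37 genes the knockdown effects differed between the lines by the interaction test of edgeR (adjusted p under 0.05 and a difference over 0.5 on the log2 scale), where 22.2% of all genes tested did. The values are the log2 fold change in PANC-1 minus that in H1299. Among the regulators the difference was 1.28 for ATF4, 0.92 for ATF5, 0.69 for CEBPB, 1.23 for CEBPG, 1.81 for TRIB3 and 2.82 for NUPR1. Among the eIF2α kinases it was -0.60 for EIF2AK4. In serine and one-carbon metabolism it was 0.96 for PSAT1, 0.59 for PSPH and 1.33 for ALDH1L2. In sulfur amino acid and phosphoenolpyruvate synthesis it was -0.60 for CTH, 0.63 for CBS and 1.91 for PCK2. Among the transporters it was 0.76 for SLC7A1, 0.83 for SLC7A5, 1.90 for SLC7A11 and 0.67 for SLC1A5. Among the other stress targets it was 2.91 for CHAC1, 1.85 for SESN2 and 2.31 for GDF15. Without shHDAC2 replicate 1 the difference for CEBPB was 0.39, under the limit on size.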

How the results depend on the processing

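Of the single-gene values, 547 of 555 in PANC-1, 534 of 555 in H1299 and 729 of 740 differences kept their direction and their call, which needs both the adjusted p and the fold limit. The adjusted p alone moved across 0.05 for 18 of the 555, 46 of the 555 and 52 of the 740. In every setting of scaling, filter, tool and left-out library, 12 of 13 calls in PANC-1, 7 of 11 in H1299 and 19 of 20 differences were kept. Genes called higher in PANC-1 numbered 5 at a log2 limit of 1 and 21 at the adjusted p alone, and genes called lower 0 with glmTreat, 0 at a limit of 1 and 10 at the adjusted p alone. In H1299 genes called higher numbered 0 with glmTreat, 0 at a limit of 1 and 3 at the adjusted p alone (1 with upper quartile scaling), and genes called lower 4, 3 and 20. Differences called numbered 10 at a limit of 1. DESeq2 called 7 lower genes in H1299, where TRIB3 (-0.79, adjusted p = 0.086), SLC7A11 (-0.67, adjusted p = 0.28) and SLC1A4 (-0.50) lost the call, and it lost CEBPB among the differences (0.66, adjusted p = 0.14).

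Leaving out each library in turn gave 11 to 12 genes called higher and 2 to 2 lower in PANC-1 (18 to 21 and 9 to 11 at the adjusted p alone), 0 to 1 higher and 8 to 13 lower in H1299 (1 to 2 and 13 to 23 at the adjusted p alone), and 20 to 21 differences. EIF2AK3 in H1299 lost its call without scramble replicate 3, and 13 genes fell at the adjusted p alone without shHDAC2 replicate 1 or scramble replicate 3. Values that changed sign did so only in fits that left out 1 library. In PANC-1 they ranged from -0.07 to 0.04 for PSAT1 and from -0.10 to 0.05 for XPOT. In H1299 they ranged from -0.46 to 0.02 for CEBPB, -0.18 to 0.02 for SLC3A2, -0.02 to 0.12 for PHGDH, -0.18 to 0.03 for CTH and -0.02 to 0.14 for PPP1R15A. The differences ranged from -0.05 to 0.10 for PYCR1, -0.45 to 0.02 for ASNS, -0.19 to 0.02 for DDIT3 and -0.15 to 0.03 for EIF4EBP1. The causes were not tested.

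The labels do not say whether replicate numbers pair libraries across groups. Over all genes tested, same-numbered libraries had correlations of -0.05 to 0.03 in their deviations, and differently numbered ones -0.04 to 0.06. Such values cannot settle pairing for a single gene. With the replicate block the calls numbered 11 higher and 2 lower in PANC-1, 1 higher and 10 lower in H1299, and 20 differences.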
